A study of Arabidopsis thaliana with 12 samples.

Results

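Whole seedlings of Arabidopsis thaliana labelled ring1ab were compared with wild-type Col-0 (WT) seedlings at 10 days after germination (DAG), over all genes of a table of transcript levels. The comparison used 6 of the 12 RNA-seq samples of the series, 3 per genotype, which is 2 of its 4 genotypes, and the table listed 33602 genes. All plants had the Col-0 background and were grown in long days on MS agar plates with sucrose. The WT carried no mutation by its label, and the ring1ab label gave no allele for either gene. The study described ring1ab as a weak mutant that makes leaves and flowers and keeps part of its RING1 activity. The other genotypes, clf28swn7 and emf1-2, entered the estimate of the spread between replicates and the filter that decided which genes were tested, and the design text called the 3 samples of a genotype independent biological replicates without saying whether they came from separate platings.

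RING1A and RING1B are RING-finger proteins of Polycomb repressive complex 1 (PRC1). Together with a BMI1 partner they place ubiquitin on histone H2A, a mark found at many genes that are kept silent outside their proper tissue or stage. In plants, Polycomb repression is known for closing the embryo programme after germination, for holding meristem genes off in leaves and for holding floral organ genes off until flowering.

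Values were FPKM, fragments scaled by transcript length and by the total of mapped fragments. From the steps between the values of 8472 single-exon genes, about 18500000 to 20300000 fragments lay behind each WT library and 18900000 to 21700000 behind each library labelled ring1ab. Genes at 1 FPKM or more numbered 19066 to 19308 in WT and 20049 to 20226 in the libraries labelled ring1ab. Organelle-encoded genes held 0.217% to 2.53% of the summed FPKM in WT, with the highest share in WT replicate 1, and 0.154% to 1.10% in the libraries labelled ring1ab. Over the tested genes, libraries of one genotype correlated at 0.977 or above on the log2 scale, and libraries of different genotypes at 0.904 to 0.927. Seedlings were ground whole, so fewer cells that express a gene and less RNA per cell cannot be told apart.

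The targeted genes moved in opposite directions. RING1B (AT1G03770, chromosome 1, 944572 to 947682 in TAIR10.1, forward strand) was at 7.59, 6 and 7.61 in WT against 0.426, 0.377 and 0.859 FPKM in the libraries labelled ring1ab, a log2 fold change of -2.38 ± 0.13 (SE, adjusted p = 2.5e-07 by limma with Benjamini-Hochberg adjustment). RING1A (AT5G44280, chromosome 5, 17835810 to 17839303, reverse strand) was at 4.03, 5.58 and 4.63 in WT against 201, 183 and 182 FPKM, a 39.7-fold higher mean (log2 fold change 5.05 ± 0.10, adjusted p = 2.9e-10). The high RING1A level went against what a loss of both genes would give, so the samples are called the libraries labelled ring1ab throughout. A whole-gene FPKM does not show which part of a transcript was sequenced, and the RING1A annotation overlaps AT5G44270 on the other strand while RING1B overlaps AT1G03780. Every direction below is that of the labelled groups.

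Against 7.16% higher and 1.03% lower over all tested genes, 3 of the 11 genes listed as PRC1 components and partners rose and 1 fell. Besides RING1A these were DRIP2 (BMI1A), a BMI1 RING-finger partner of the RING1 proteins, at 5.83, 7.2 and 6.15 in WT against 16.8, 18.3 and 17.7 (log2 fold change 1.33), and AT3G23060, a further RING-finger gene of the BMI1 group, at 0.0591, 0.0552 and 0.271 in WT against 4.28, 6.68 and 6.1 (log2 fold change 2.55). DRIP1 (BMI1B) went from 4.52, 4.92 and 5.4 in WT to 8.12, 7.23 and 7.14, with no overlap of the groups but a log2 fold change of 0.52 under the threshold. EMF1, a plant-specific protein placed with PRC1 in some accounts and with PRC2 in others, was at 7.31, 8.79 and 8.05 in WT against 8.68, 8.77 and 8.66, and TFL2 (LHP1), the reader of methylated histone H3, was at 11.3, 12.7 and 12.4 in WT against 10.9, 12 and 11.6. Both overlapped between the groups. Values for HSI2 (VAL1), a B3-domain repressor of seed genes, were 13.7, 14.6 and 14.6 in WT against 19, 19.6 and 17 (log2 fold change 0.35).

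**Figure D1:**
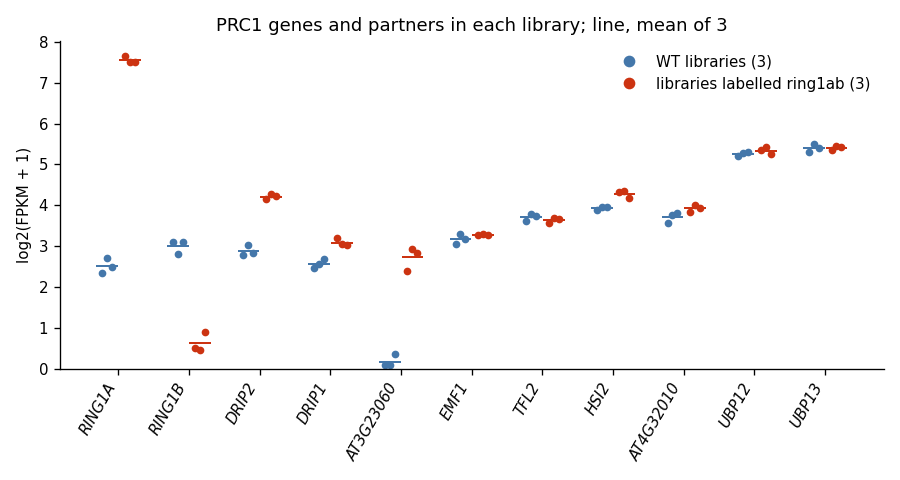
Expression of the 11 PRC1 genes and partners on the log2(FPKM + 1) scale (vertical axis), one column per gene, blue for the 3 WT libraries and red for the 3 libraries labelled ring1ab, with a line at the mean of the 3 points. RING1A lies far above WT and RING1B far below in all 3 libraries, and the groups overlap for UBP12, UBP13, EMF1 and TFL2.

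Polycomb repressive complex 2 (PRC2) methylates histone H3. Of its 11 listed genes 9 were tested, 1 rose and none fell (median log2 fold change 0.03). For so few genes that count is near the shares of all tested genes, 7.16% higher and 1.03% lower. The one that rose was VIN3, a PHD-finger partner known from vernalization, at 0, 0 and 0.0487 in WT against 1.95, 2.83 and 2.1 (log2 fold change 1.69). Among 10 trithorax-group and demethylase genes, 2 rose (20%) and none fell. ULT1, a SAND-domain protein that counteracts Polycomb repression at floral genes, was at 9.06, 8.32 and 8.99 in WT against 22.9, 22.3 and 25.2 (log2 fold change 1.32), and its relative ULT2 at 0.187, 0.0581 and 0 in WT against 7.2, 7.68 and 6.84 (log2 fold change 2.93).

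A gene was called when its log2 fold change on the log2(FPKM + 1) scale was at least 1 in size with an unadjusted limma p under 0.05, the thresholds of the study's methods. Of 21227 genes tested, 1520 were higher (7.16%) and 219 lower (1.03%) in the libraries labelled ring1ab, so that 87.4% of the called genes rose. With adjusted p in place of p, 1502 were higher and 212 lower. The rises were also the larger changes: 186 genes rose by 3 or more on the log2 scale and 7 fell by as much. All 3 libraries labelled ring1ab lay above all 3 WT libraries for 1516 of the genes called higher, and below for 216 of those called lower, while 50.9% of all tested genes had groups that did not overlap. Adding 1 before the logarithm understates the change of genes with low FPKM. It also keeps any gene with a mean under 1 FPKM in WT from being called lower. The share of called genes that rose is affected by that limit. Over all tested genes the median change was 0.04 on this scale. The counts of called genes in each list below are to be read beside the shares of all tested genes, 7.16% higher and 1.03% lower.

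Genes with a mean under 1 FPKM in WT seedlings made up 674 of the 1520 higher genes. None was among the lower ones, but on the log2(FPKM + 1) scale such a gene cannot fall by 1, so that absence was fixed beforehand. Of 241 tested genes listed at 0 in every WT library 114 rose, of 1762 with a mean above 0 and under 1 FPKM 560 rose, of 8597 between 1 and 10 FPKM 634 rose, and of 10627 at 10 FPKM or more 212 rose. A gene under 1 FPKM in WT entered the test only through a genotype in which it was higher, so these shares are a description. Among the 19224 genes averaging 1 FPKM or more in WT, 846 rose (4.40%) and 219 fell. Falls were split between 96 genes at 1 to 10 FPKM and 123 at 10 FPKM or more. By chromosome, 6.93% to 7.44% of the tested genes rose and 0.912% to 1.24% fell. Protein-coding genes were 1482 of the higher and 202 of the lower genes, and of 121 tested pseudogenes 16 rose (13.2%) and 7 fell (5.79%).

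**Figure D2:**
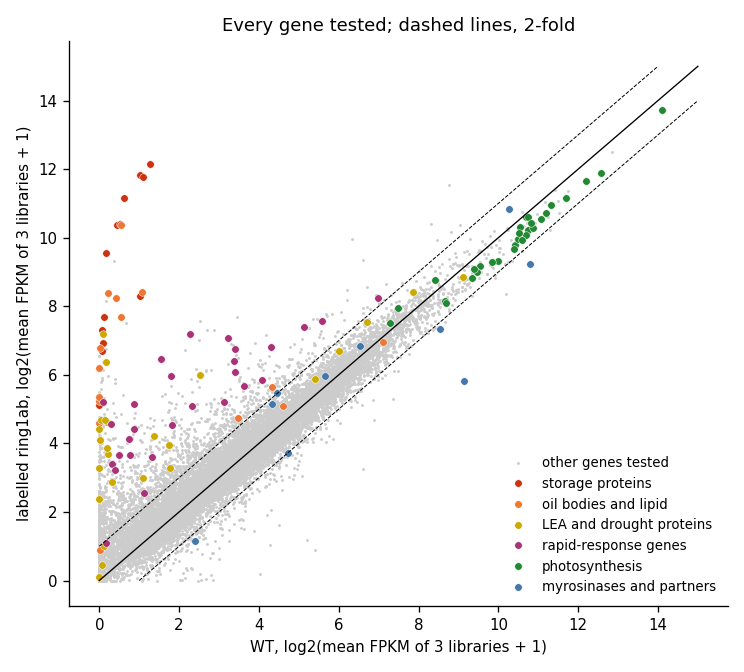
Mean level of every tested gene in WT (horizontal axis) and in the libraries labelled ring1ab (vertical axis), each as log2(mean FPKM of 3 libraries + 1), with equality as a solid line and 2-fold as dashed lines. Storage, oil body and LEA genes rise along the left edge, rapid-response genes lie above the upper line and photosynthesis genes follow the lower side of the diagonal.

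Seed storage protein genes made the largest rises. These encode the 12S cruciferins, the 2S albumins (SESA) and vicilin-like cupins, which fill protein bodies of the embryo during maturation and are used up after germination. All 13 tested members rose (median log2 fold change 9.35, against 0.04 over all genes), and their summed FPKM went from 3.25, 2.62 and 13.1 in WT to 13944, 23792 and 17242 in the libraries labelled ring1ab. They held 2.07% to 3.53% of all FPKM in those libraries. CRU3, a cruciferin, was at 0.618, 0.453 and 3.2 in WT against 3383, 5978 and 4363 FPKM (log2 fold change 11.02 ± 0.55, adjusted p = 1.0e-07). CRA1, another cruciferin, was at 0.562, 0.317 and 2.16 in WT against 2489, 5074 and 3358 (log2 fold change 10.87 ± 0.41, adjusted p = 9.7e-09). The SESA3 albumin was at 0.414, 0.579 and 2.46 in WT against 2668, 4321 and 3493 (log2 fold change 10.76 ± 0.87). WT replicate 3 was the highest WT library for each of these 3 genes, and replicate 2 the highest of the labelled libraries for all 13 members. SESA1 to SESA4 lie side by side on chromosome 4 (13607329 to 13614283) and are close copies of each other, so reads may be shared among them.

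Oil body and seed oil genes followed with 12 of 15 higher and none lower (median 5.29). Oleosins coat the oil bodies of seeds. OLEO1 was at 0.175, 0.163 and 1.01 in WT against 1075, 1638 and 1230.0 (log2 fold change 9.85 ± 0.21), OLEO2 at 0, 0 and 0.495 in WT against 283, 421 and 297 (8.17) and OLEO3 at 0.329, 0.404 and 0.294 in WT against 268, 388 and 255 (7.80). KCS18 (FAE1), which elongates the very long chain fatty acids of seed oil, was listed at 0 in every WT library and at 30.7, 45.3 and 33.6 in the libraries labelled ring1ab. The peroxygenase ATPXG2, of the caleosin family, was listed at 0 in WT and at 17, 32.8 and 20.1, and the oil body steroleosin AT5G50600, which has a near-identical copy in AT5G50700, was at 0 in every WT library against 62.4, 97.8 and 59.1. No library of either group overlapped the other for these 6 genes, as for 50.9% of all tested genes in either direction.

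Late embryogenesis abundant (LEA), dehydrin and desiccation genes, whose products protect drying embryos and, for several members, drought-stressed leaves, showed 17 of 25 higher and none lower (median 2.53). PER1, a seed peroxiredoxin, was at 0, 0.0502 and 0.164 in WT against 133, 177 and 129.6 (log2 fold change 7.09), the LEA gene AT2G21490 at 0.127, 0.0485 and 0.194 in WT against 67.6, 109.5 and 68.5 (6.17) and AT3G15670 at 0.104, 0 and 0 in WT against 18.6, 40.5 and 15.2 (4.51). Members that respond to cold and drought in leaves moved less: COR15A was at 1.64, 0.861 and 0.943 in WT against 9.41, 6.06 and 5.19 (1.86) and COR15B at 2.95, 2.27 and 2.03 in WT against 9.36, 7.93 and 8.67 (1.51). By product name over the whole genome, 28 of 78 tested LEA proteins rose (35.9%) and none fell.

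Further seed proteins were among the called genes. TIP3;1, an aquaporin of the membrane of protein storage vacuoles, was listed at 0 in every WT library and at 79.3, 116 and 83.4 in the libraries labelled ring1ab. BETA-TIP, a second aquaporin of that membrane, was at 0.0452, 0.253 and 0.184 in WT against 52.9, 83.2 and 50 (log2 fold change 5.73), and BETA-VPE, a protease that processes storage proteins, at 1.75, 2.14 and 2.58 in WT against 39.3, 51.8 and 35.4 (3.77). A pair of genes outside the lists were among the 12 largest rises: AT1G47540, annotated as a knottin-like protein, at 0.107, 0 and 0.765 in WT against 595, 805 and 510.0 (8.97), and MEE26, a hydroxyproline-rich protein, at 0, 0.0728 and 0.318 in WT against 222, 346 and 288 (7.97).

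Regulators of embryo maturation rose with these products. FUS3, ABI3, LEC1 and LEC2 are the master regulators that start and hold the maturation programme, the first 2 and LEC2 through a B3 DNA-binding domain. Of 16 listed regulators 14 were tested, 10 rose and none fell (median 2.31). FUS3 was at 0.139, 0.0896 and 0.117 in WT against 23.8, 24.9 and 18.7 FPKM (log2 fold change 4.39 ± 0.14, adjusted p = 2.6e-09) and ABI3 at 0, 0.0452 and 0.0181 in WT against 16.4, 20.5 and 15.8 (4.18 ± 0.18). NF-YB6 (L1L), the closest relative of LEC1, was at 0, 0.109 and 0.0942 in WT against 13.4, 12.6 and 7.78 (3.49). LEC1 itself stayed under 1 FPKM at 0 in every WT library against 0.396, 0.695 and 0.227 and was not tested, and LEC2 was at 0, 0.122 and 0.15 in WT against 0.0403, 0 and 0.0398, with overlapping groups.

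The bZIP factors that act with ABI3 on storage genes rose as well, DPBF2 (bZIP67) at 0, 0 and 0.0876 in WT against 9.08, 10.9 and 7.64 (log2 fold change 3.30) and EEL at 3.22, 3.63 and 3.44 in WT against 32.9, 43.6 and 29 (3.01). ABI4, an AP2 factor of seed sugar and abscisic acid responses, was listed at 0 in every WT library and at 6.58, 10.4 and 7.6. ABI5 went from 1.89, 1.33 and 2.07 in WT to 5.29, 3.96 and 3.46, a log2 fold change of 0.92 that was just under the threshold. WRI1, the activator of fatty acid synthesis in seeds, was at 4.47, 6.36 and 5.72 in WT against 19.8, 20.4 and 14.7 (1.56), and DOG1, which sets seed dormancy, at 0.543, 1.01 and 0.673 in WT against 7.26, 8.18 and 6.06 (2.23). AGL15, a MADS-box gene that favours somatic embryos, was at 2.17, 2.07 and 2.55 in WT against 15, 19.3 and 14.3 (2.39), whereas its relative AGL18 was at 7.03, 8.96 and 8.1 in WT against 5.83, 7.79 and 6.99 (-0.20). BBM was at 0.535, 0.29 and 0.515 in WT against 3.75, 4.64 and 2.44 (1.65), and MYB115 and MYB118 were listed at 0 in all 6 libraries.

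Seed coat, endosperm and pollen lists had no calls, with few members expressed. None of the 5 tested seed coat genes, 2 tested endosperm genes or 4 tested pollen genes of lists of 11, 10 and 16 was called, and 6, 8 and 12 members of these lists stayed under 1 FPKM in all 6 libraries. Summed seed coat FPKM was 155 to 169 in WT and 139 to 152 in the libraries labelled ring1ab, and summed pollen FPKM was 12.7 to 14.2 and 11.8 to 13.4.

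Promoters of the storage genes are shown because B3-domain factors such as FUS3 and ABI3 are known to bind the RY motif (CATGCA) and bZIP factors the G-box (CACGTG) or the abscisic acid response core (ACGTGT). Sequences are the 250 bases before the annotated start in TAIR10.1 (RefSeq), 5′ to 3′ on the strand of the gene, with matches to the 3 motifs on either strand in capitals, and neighbouring matches may overlap. CRU3 (chr4:14087306-14087555, forward) held 1 RY match and 1 response core, SESA3 (chr4:13611546-13611795, forward) 7 RY matches, 1 G-box and 1 response core, OLEO1 (chr4:12900180-12900429, forward) 3 RY matches, 2 G-boxes and 3 response cores, and FUS3 (chr3:9856213-9856462, reverse) 1 RY match and neither of the others.
CRU3: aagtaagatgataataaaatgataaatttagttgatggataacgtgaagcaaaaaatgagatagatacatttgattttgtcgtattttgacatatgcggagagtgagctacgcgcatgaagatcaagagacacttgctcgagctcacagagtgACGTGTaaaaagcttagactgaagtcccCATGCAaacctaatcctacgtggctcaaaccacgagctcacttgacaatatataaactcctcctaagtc
SESA3: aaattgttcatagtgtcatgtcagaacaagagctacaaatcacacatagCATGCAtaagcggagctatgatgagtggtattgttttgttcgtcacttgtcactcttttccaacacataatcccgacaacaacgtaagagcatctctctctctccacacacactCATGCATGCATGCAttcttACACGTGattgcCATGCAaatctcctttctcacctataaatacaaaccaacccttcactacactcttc
OLEO1: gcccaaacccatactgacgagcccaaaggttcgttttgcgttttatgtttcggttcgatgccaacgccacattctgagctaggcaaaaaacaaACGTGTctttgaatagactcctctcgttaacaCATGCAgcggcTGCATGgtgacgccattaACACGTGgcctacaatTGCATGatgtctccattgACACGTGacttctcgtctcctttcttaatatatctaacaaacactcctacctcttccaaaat
FUS3: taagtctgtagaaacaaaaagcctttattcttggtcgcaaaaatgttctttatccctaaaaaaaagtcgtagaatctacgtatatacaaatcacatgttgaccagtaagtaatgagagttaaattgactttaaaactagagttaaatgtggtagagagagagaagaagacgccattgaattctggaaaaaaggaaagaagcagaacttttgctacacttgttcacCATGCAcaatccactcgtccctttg
Of the 13 storage genes 11 held RY in this window (84.6%), as did 10 of 15 oil genes, 248 of the 1516 higher genes with a promoter (16.4%), 33 of 214 lower genes (15.4%) and 1689 of 21028 tested genes (8.03%). The response core was in 18 of 25 LEA genes (72.0%), 19.3% of higher, 9.81% of lower and 11.4% of all tested genes, and the G-box in 11.2%, 6.54% and 7.43%. The telo-box AAACCCTA was in 3.89%, 2.80% and 3.70%, and GAGAGA in 19.1%, 17.3% and 19.5%. These shares are descriptions of letters in a window.

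Some genes for using seed reserves rose as well. Of 11 genes listed under germination and reserve mobilisation 4 rose, namely ICL, MLS, PCK1 and RPL, of which RPL is a homeobox regulator and no reserve gene, and BGAL1, a beta-galactosidase, fell. BGAL1 was not called without replicate 2 of the labelled libraries (-0.87). ICL, isocitrate lyase of the glyoxylate cycle that turns fatty acids into sugar, was at 12.4, 8.88 and 8.74 in WT against 168, 242 and 205 (log2 fold change 4.23), and MLS, malate synthase of the same cycle, at 1.75, 2.94 and 2.76 in WT against 47.6, 59.1 and 43.5 (3.88). PCK1, which feeds the products into sugar synthesis, was at 237, 266 and 263 in WT against 499, 536 and 534 (1.03). Lipid transfer protein genes LTP2, at 62.4, 102 and 76.3 in WT against 906, 1301 and 793 (3.62), and LTP6, at 10.4, 15.1 and 13.9 in WT against 47, 48 and 38.3 (1.69), rose too. In the lipid transfer and 2S albumin superfamily by product name, 20 of 80 tested genes rose (25%) and 5 fell (6.25%). The shares over all tested genes were 7.16% and 1.03%.

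**Figure D3:**
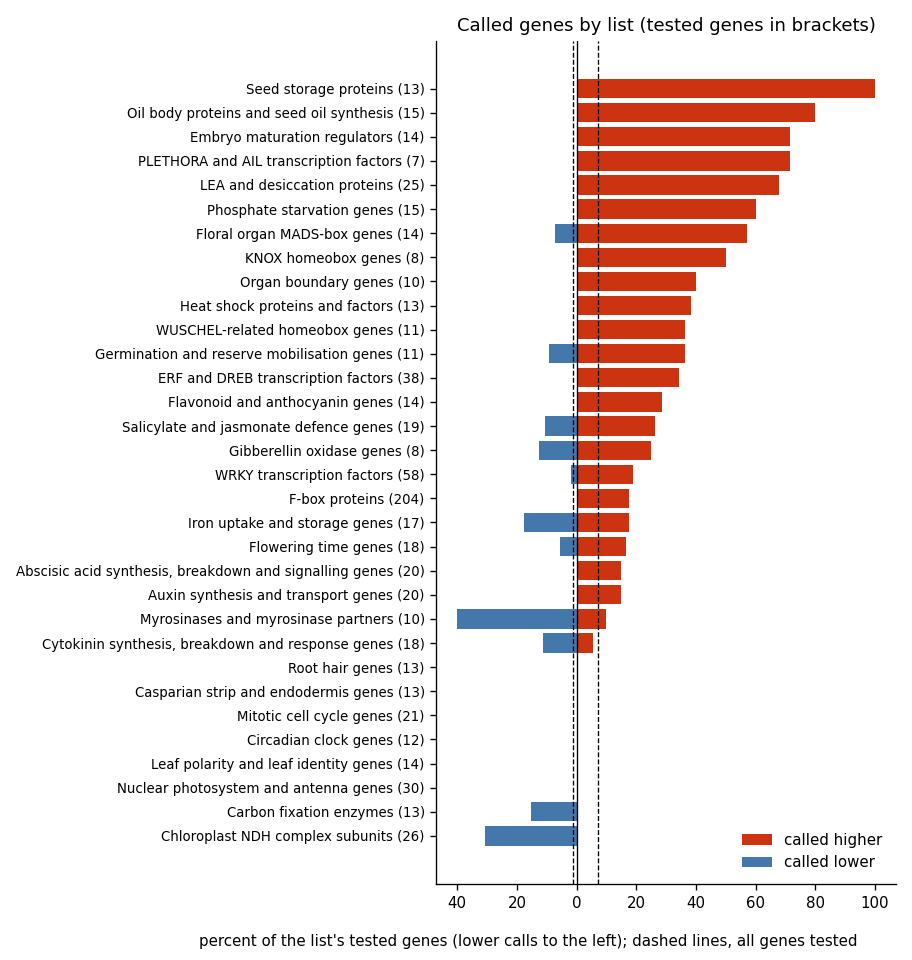
Share of each list's tested genes called higher (red, to the right) and lower (blue, to the left) in the libraries labelled ring1ab, with the number tested in brackets, the ERF, WRKY and F-box genes picked by symbol or product name, and dashed lines at the shares of all tested genes, 7.16% higher and 1.03% lower. Storage, oil, PLT/AIL, embryo maturation and LEA genes stand at the top, 6 of the lists drawn have no call in either direction, and the chloroplast NDH, myrosinase and carbon fixation lists show the largest blue bars with iron.

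Meristem and boundary transcription factors rose from low levels. KNOX homeobox genes keep cells of the shoot meristem undifferentiated, and 4 of 8 rose, all of them class I members. STM was at 1.09, 2.19 and 1.6 in WT against 7.01, 8.91 and 6.73 (log2 fold change 1.71 ± 0.15), KNAT1 (BP) at 5.09, 8.48 and 7.07 in WT against 16.2, 20.5 and 15.7 (1.24), KNAT2 at 0.769, 0.361 and 0.472 in WT against 3.77, 4.02 and 3.93 (1.69) and KNAT6 at 3.15, 4.35 and 3.1 in WT against 7.19, 9.28 and 9.36 (1.09). The class II genes KNAT3, KNAT4, KNAT5 and KNAT7 were at log2 fold changes of -0.19, -0.66, 0.18 and -0.42, none called.

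PLETHORA and AINTEGUMENTA-like (AIL) genes, AP2 factors of embryo, root and shoot meristems, showed 5 of 7 tested higher (median 1.24). AIL5 (PLT5) was the most changed at 2.13, 2.45 and 2.46 in WT against 28.8, 35.3 and 27.1 (log2 fold change 3.22 ± 0.16), followed by AIL7 at 0.72, 0.703 and 1.31 in WT against 6.97, 8.83 and 7.57 (2.21), BBM (1.65) and AIL6 (PLT3) at 2.8, 2.82 and 2.88 in WT against 8.67, 9.04 and 6.71 (1.24). The organ boundary genes CUC1, CUC2 and CUC3, which separate organs from the meristem, rose as well. CUC1 was at 0.381, 0.689 and 0.277 in WT against 4.71, 5.21 and 3.73 (1.94), CUC3 at 0.24, 0.53 and 0.589 in WT against 2.78, 3.94 and 3.05 (1.55) and CUC2 at 0.121, 0.298 and 0.267 in WT against 1.82, 2.94 and 1.56 (1.32). MYB117 (LOF1) was the fourth of 4 called among 10 tested boundary genes, at 0.398, 0.262 and 0 in WT against 3.25, 2.19 and 3.3 (1.68). CYP78A5 (KLUH), a cytochrome P450 of the shoot apex that prolongs organ growth, was at 1.25, 1.88 and 1.46 in WT against 18.3, 17.1 and 13.7 (2.78).

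WUSCHEL-related homeobox genes showed 4 of 11 tested higher: WOX5, known from the root organizer, at 0.661, 0.888 and 0.859 in WT against 3.46, 4.08 and 4.7 (log2 fold change 1.49), WOX2, from the early embryo, at 0.622, 0.441 and 0.586 in WT against 2.16, 2.42 and 3.4 (1.23), WOX12 at 0.129, 0.364 and 0.486 in WT against 2.91, 1.86 and 1.64 (1.23) and AT2G33880 (WOX9) at 0, 0 and 0.0354 in WT against 0.728, 1.02 and 1.52 (1.03). WUS was at 0 in every WT library against 0.043, 0.151 and 0.0421 and was not tested. By contrast, none of 14 leaf polarity and leaf identity genes and none of 21 mitotic cell cycle genes was called. Their medians were 0.18 and 0.35, and 13 of the 21 cell cycle genes had all 3 libraries labelled ring1ab above WT. Over all tested genes, 50.9% had groups that did not overlap, counting both directions.

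Floral organ identity genes of the MADS-box family were higher in these seedlings, although their levels were low. Of 14 tested, 8 rose and 1 fell (median 1.02), and the summed FPKM of the 15 listed genes was 12.3, 13.3 and 11.2 in WT against 35.5, 49.5 and 53.7. PI, a petal and stamen identity gene, was at 0.662, 0.899 and 0.955 in WT against 11.6, 9.65 and 12.3 (log2 fold change 2.72 ± 0.09, adjusted p = 4.8e-09), and its partner AP3 at 0.204, 0.143 and 0.364 in WT against 1.11, 1.39 and 2.15 (1.03). SEP1 (AT5G15800) was at 0.0369, 0.138 and 0.0376 in WT against 4.06, 5.17 and 5.3 (2.44), SEP2 (AT3G02310) at 0, 0.035 and 0.0382 in WT against 0.928, 2.35 and 1.76 (1.35) and SEP3 at 4.4, 5.79 and 2.93 in WT against 10.3, 18.6 and 20.7 (1.68), all cofactors of floral organ identity. Carpel and ovule genes SHP1, SHP2 and STK rose by 2.09, 1.14 and 1.02.

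Not every floral gene moved. AG, the carpel and stamen identity gene, was at 0.228, 0.337 and 0.167 in WT against 0.194, 0.343 and 0.29, AP1 at 0.0863, 0 and 0 in WT against 0, 0.113 and 0 and the meristem identity gene LFY, not tested, at 0 in every WT library against 0.371, 0.219 and 0.207. SEP4 fell from 5.48, 4.34 and 5.5 in WT to 1.12, 1.54 and 1.23 (log2 fold change -1.41 ± 0.12).

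Of 18 tested flowering time genes 3 rose (16.7%), against 7.16% of all tested genes. All 3 were repressors of flowering: FLC at 2.76, 3.19 and 3.52 in WT against 8.21, 8.82 and 6.76 (log2 fold change 1.10), MAF4 at 3.03, 3.42 and 3.49 in WT against 10.6, 10.7 and 8.92 (1.36) and MAF5 at 4.51, 5.66 and 6.15 in WT against 24.4, 23.7 and 27.1 (2.02). MAF3 was at 9.96, 11.3 and 12.6 in WT against 11.4, 10.4 and 9.15 (-0.12). AGL19, an activator of flowering, fell from 0.978, 1.34 and 1.13 in WT to 0, 0.101 and 0 (-1.06). It passed no longer when replicate 2 of WT was left out (-0.99). AGL20 (SOC1) was at 14.5, 13.8 and 19.2 in WT against 14, 10.2 and 12.4 (-0.35), and FT was under 1 FPKM in all 6 libraries. Of 15 juvenile and adult phase genes only SPL3, an activator of the adult phase and of flowering, was called, at 12.2, 9.41 and 10.4 in WT against 2.86, 4.47 and 4.79 (-1.23), and SPL3 overlaps AT2G33815 on the other strand. None of 12 circadian clock genes was called.

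**Figure D4:**
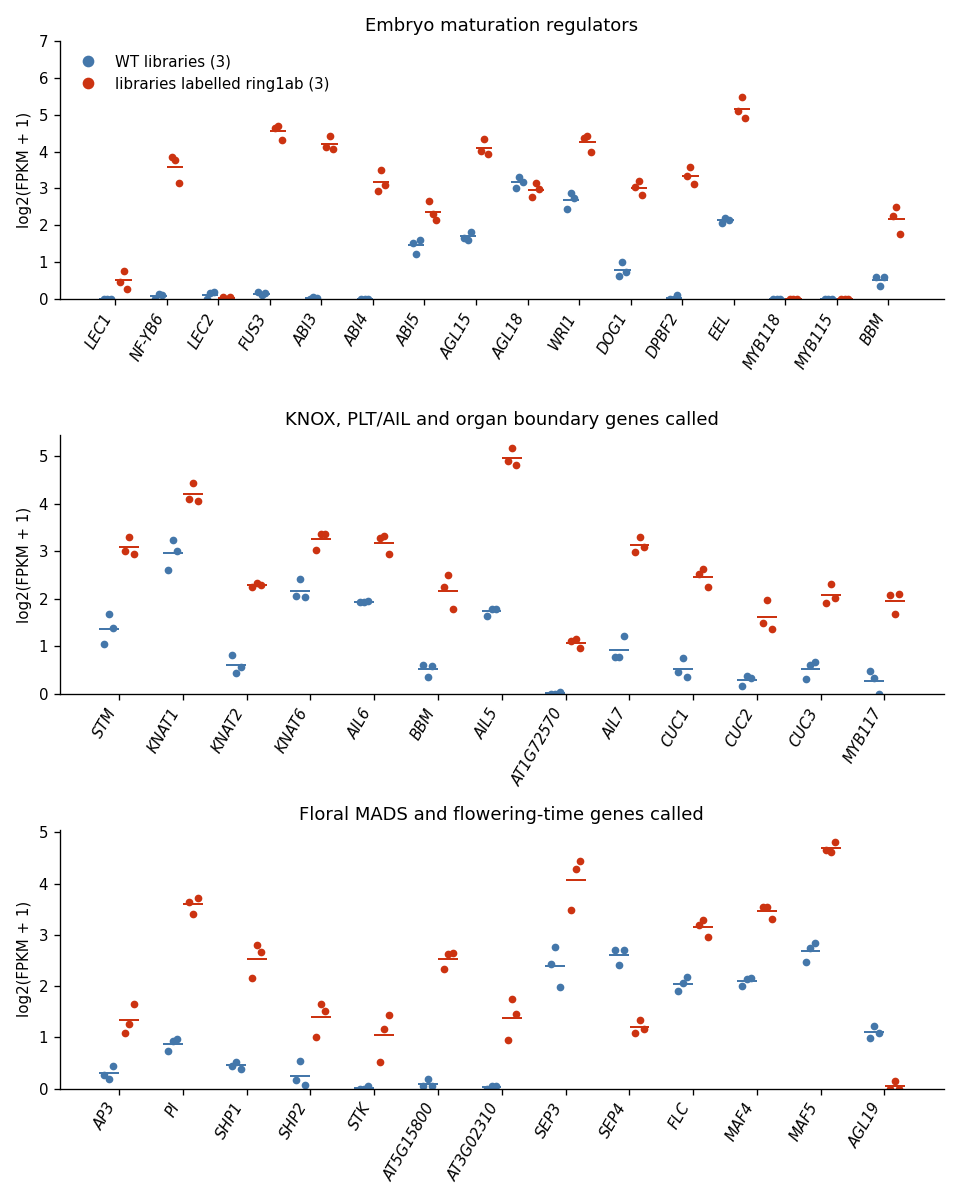
Levels as log2(FPKM + 1) (vertical axes) of all 16 embryo maturation regulators (top), of the called KNOX, PLT/AIL and boundary genes (middle) and of the called floral MADS and flowering-time genes (bottom), with blue for the 3 WT libraries, red for the 3 libraries labelled ring1ab and a line at each mean of 3. In the lower panels only SEP4 and AGL19 fall, and AT5G15800 and AT3G02310 are SEP1 and SEP2.

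Genes of small RNA and DNA methylation pathways known from the germ line were picked out after their values were seen. AGO9, an ARGONAUTE protein of ovule cells next to the female germ line, was at 0.0965, 0.115 and 0.0179 in WT against 24.5, 30.8 and 28.7 (log2 fold change 4.75 ± 0.10), and AGO5, from the germ cells, at 0.15, 0.0623 and 0.017 in WT against 22.6, 27.9 and 29 (4.67 ± 0.12). AGO4, of RNA-directed DNA methylation, was at 12.7, 13.4 and 14.6 in WT against 34.4, 41.4 and 30.1 (1.31), and the remaining 6 of the 9 ARGONAUTE genes were not called. VIM5, a relative of the methylcytosine-binding protein VIM1, was listed at 0 in every WT library and at 19.7, 23.9 and 21.4 in the libraries labelled ring1ab, and VIM1 was at 8.67, 9.14 and 7.61 in WT against 19.1, 22.1 and 18.4 (1.14). The remaining 3 of the 5 VIM genes were not called.

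Few hormone genes changed. The auxin synthesis genes YUC4, at 0.228, 0.222 and 0.101 in WT against 2.19, 3.04 and 2.21 (log2 fold change 1.55), and YUC5, at 0.672, 0.442 and 0.853 in WT against 3.29, 1.79 and 2.59 (1.09), rose. YUC5 was not called without replicate 2 of WT (0.99) or replicate 1 of the labelled libraries (0.94). In the gibberellin pathway, GA20OX3, which makes precursors, was at 0.659, 0.338 and 0.487 in WT against 9.46, 12.4 and 7.08 (2.81), whereas GA3OX1, which makes the active hormone, fell from 10.1, 11.1 and 11.5 in WT to 3.78, 4.3 and 4.49 (-1.20). GA2OX6, which inactivates gibberellin, was at 3.52, 4.92 and 5.53 in WT against 49.1, 9.04 and 13.1 (1.78) and its change was 1.09 without replicate 1 of the labelled libraries.

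Abscisic acid 8′-hydroxylase genes, which break the hormone down, rose: CYP707A3 was at 1.85, 2.55 and 2.56 in WT against 47, 14.8 and 26.4 (log2 fold change 3.06) and CYP707A1 at 3.76, 4.04 and 4.69 in WT against 20.6, 6.64 and 7.63 (1.13). CYP707A1 was not called without replicate 1 of the labelled libraries (0.66). Among 18 tested cytokinin genes, the degrading enzyme CKX1 rose (0.799, 1.31 and 1.12 in WT against 2.9, 4.6 and 3.69, 1.18) and the response regulators RR16 (10.8, 11.2 and 10.3 in WT against 2.93, 2.41 and 1.99, -1.78) and ARR4 (130.0, 116 and 131 in WT against 70.5, 48.1 and 50.6, -1.16) fell.

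Rapid touch, wound and chitin response genes formed a second large group of rises. The list of 28 such genes was drawn up after values had been seen, so its count is a description. All but 1 were higher (median 2.75), and all 28 had the 3 labelled libraries above the 3 WT libraries. Over all tested genes, 50.9% had groups that did not overlap, counting both directions. STZ (ZAT10), a zinc-finger repressor of stress responses, was at 2.3, 2.97 and 6.12 in WT against 172, 116 and 147 (log2 fold change 4.99 ± 0.28), WRKY40, a transcription factor of pathogen responses, at 1.44, 1.63 and 2.63 in WT against 158, 38.4 and 66.5 (4.72 ± 0.40), and RRTF1, an ethylene response factor of redox stress, at 0, 0.0357 and 0.176 in WT against 79.8, 10.4 and 17.6 (4.59 ± 0.52). Replicate 1 of the labelled libraries was the highest of the 3 for 26 of the 28 genes. The median difference from WT was 3.65 in replicate 1, 1.98 in replicate 2 and 2.52 in replicate 3. Without replicate 1, 25 genes were called and the median was 2.26, with TCH4 and JAZ10 no longer called. The larger RRTF1 rise also rested partly on that library, with a log2 fold change of 3.77 without replicate 1 and 5.18 without replicate 2.

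Among genes picked by symbol, which leaves out relatives such as RRTF1, 13 of 38 tested ERF and DREB factors rose and none fell, and 11 of 58 WRKY factors rose and 1 fell. The cold response factors CBF1 and CBF2, close copies side by side, were at 0.0823, 0.392 and 0.257 in WT against 14.4, 5.55 and 8.87 (log2 fold change 3.01) and 0.337, 0.837 and 0.886 in WT against 18.8, 12.8 and 17.9 (3.37). JAZ1, a repressor of jasmonate responses that jasmonate itself induces, was at 7.51, 9.37 and 11 in WT against 147, 39 and 62.8 (2.83), and the calmodulin-like gene CML38 at 2.22, 2.76 and 2.5 in WT against 104, 37.7 and 42.1 (4.01). In the indole glucosinolate pathway MYB51 was at 5.89, 8.85 and 8.28 in WT against 54.3, 23.4 and 33.2 (2.06) and CYP79B2 at 18.4, 26.1 and 26.2 in WT against 57.7, 52.2 and 47.1 (1.13, and 0.97 without replicate 1 of WT, under the threshold). Of 19 tested salicylate and jasmonate defence genes 5 rose and 2 fell. FMO1, of systemic resistance, rose from 0.563, 0.62 and 0.385 in WT to 2.28, 2.31 and 2.81 (1.19, adjusted p = 0.063), and was not called without replicate 3 of WT (unadjusted p = 0.063) or replicate 3 of the labelled libraries (unadjusted p = 0.063). The genes that fell were salicylate markers. BGL2 (PR2) was at 6.14, 9.6 and 1.71 in WT against 0.424, 0.854 and 0.503 (-1.90, adjusted p = 0.034) and PR5 at 3.4, 6.75 and 4.3 in WT against 0.981, 2.04 and 1.79 (-1.14, adjusted p = 0.068). Neither was called without replicate 2 of WT, where the changes were -1.47 (unadjusted p = 0.052) and -0.92. PR5 was also not called without replicate 1 of the labelled libraries (-0.96).

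**Figure D5:**
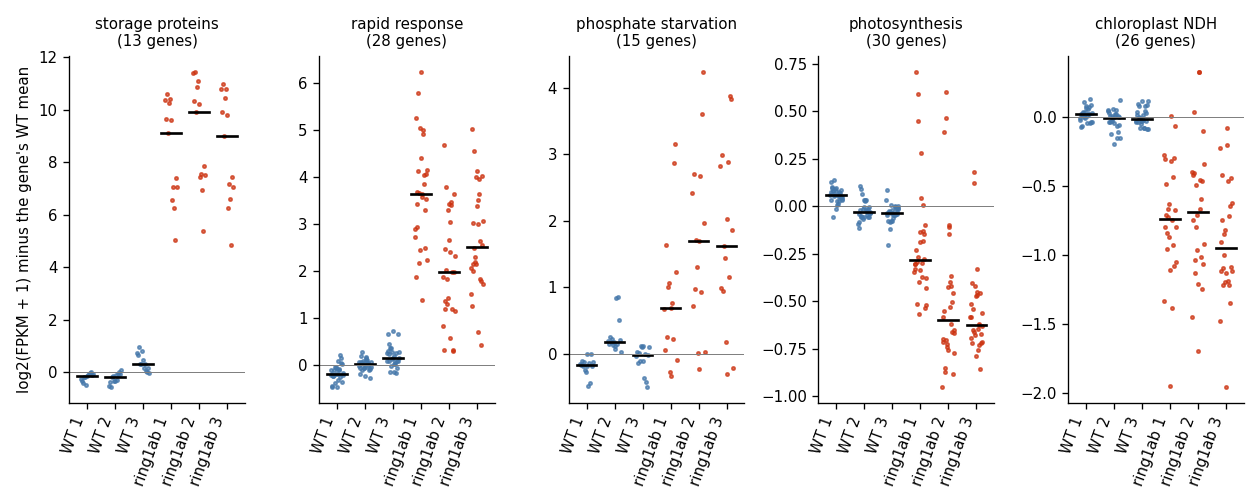
Difference of each tested gene from its WT mean on the log2(FPKM + 1) scale in each of the 6 libraries (blue WT, red labelled ring1ab, black line the median of the list), with a separate vertical scale for each of 5 lists. Storage genes are highest in replicate 2 of the labelled libraries, rapid-response genes in replicate 1, and phosphate starvation genes are lowest in replicate 1 of the 3.

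Phosphate starvation genes rose in 9 of 15 cases and none fell (median 1.45). IPS1, a noncoding RNA that sequesters miR399, was at 4.16, 6.32 and 2.64 in WT against 45.2, 96.6 and 72.5 (log2 fold change 3.75 ± 0.39), PS2 (AT1G73010), a pyrophosphatase, at 2.64, 7.97 and 2.69 in WT against 35.1, 59 and 71.7 (3.45 ± 0.39), and SPX3, a phosphate sensor protein, at 0.578, 1.01 and 0.531 in WT against 4.29, 10.1 and 12.5 (2.45 ± 0.31). MIR827, a phosphate-responsive microRNA gene outside the list, was at 0, 0.311 and 0 in WT against 1.64, 5.52 and 3.56 (1.97). Replicate 1 was the lowest of the labelled libraries for 14 of the 15 members.

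Iron genes were mixed, with 3 higher and 3 lower of 17 (17.6% each), against 7.16% and 1.03% of all tested genes. FER2, the ferritin of seeds, was at 1.02, 1.12 and 1.21 in WT against 13.2, 21.3 and 12 (log2 fold change 2.92), while FER1, the main leaf ferritin, fell from 495, 341 and 387 in WT to 198, 146 and 207 (-1.15). The root iron transporter IRT1 and reductase FRO2 fell as well, IRT1 from 11.8, 14.4 and 8.22 in WT to 7.86, 1.21 and 3.05 (-1.51) and FRO2 from 5.66, 6.38 and 4.02 in WT to 3.29, 1.09 and 1.48 (-1.16). FER1 was not called without replicate 1 of WT (-0.997), and FER1 (-0.99) and FRO2 (-0.945) were not called without replicate 2 of the labelled libraries. NAS4, for the metal chelator nicotianamine, was at 4.11, 4.93 and 6.37 in WT against 15.4, 16.1 and 14 (1.41). AT1G47395, annotated as an uncharacterized protein, was at 0.978, 1.55 and 1.5 in WT against 13.9, 7.62 and 7.03 (2.12).

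Heat shock genes rose in 5 of 13 tested cases (38.5%), against 7.16% of all tested genes. Among them were HSP70 at 18.3, 21.3 and 23.1 in WT against 38, 68.3 and 61.9 (log2 fold change 1.35) and the small heat shock gene HSP17.6II at 0.0755, 0.0705 and 0.153 in WT against 2.99, 4.58 and 2.08 (1.90), which is also known from maturing seeds. Flavonoid genes rose in 4 of 14 (28.6%), with F3H at 4.05, 5.58 and 7.23 in WT against 17.8, 24.7 and 14.3 (1.58) and TT7 at 2.6, 2.63 and 3.13 in WT against 8.13, 10.4 and 8.14 (1.38). TT4, chalcone synthase, which opens the pathway, was just under the threshold at 41.3, 35.5 and 37.2 in WT against 58.9, 92.1 and 78.2 (0.97).

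Myrosinase genes TGG1 and TGG2 were among the most abundant genes that fell. The enzymes split glucosinolates when leaf tissue is damaged and are stored in myrosin cells and guard cells. TGG2 fell from 611, 546 and 546 in WT to 56.8, 51.8 and 56.5 (log2 fold change -3.34 ± 0.35, adjusted p = 3.5e-05) and TGG1 from 1824, 1686 and 1803 in WT to 643, 541 and 612 (-1.57 ± 0.16, adjusted p = 2.4e-05). A list of 10 myrosinases and partners was added after these values were seen, and 4 of its genes fell. The others were ESP (AT1G54040), which directs the products of myrosinase, at 5.14, 3.54 and 4.21 in WT against 1.58, 0.822 and 1.24 (-1.26), and FMA (FAMA), the regulator of guard cell and myrosin cell fate, at 24.7, 24.2 and 27 in WT against 12.1, 11.6 and 12.6. BGLU34 (TGG4), a root myrosinase, rose from 18.1, 19.4 and 25.1 in WT to 36.9, 50.3 and 44.2 (1.04), a call lost without replicate 1 (0.95) or 2 (0.99) of WT or replicate 2 of the labelled libraries (0.93).

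The largest fall by log2 fold change was AT5G01712, with no entry in the reference annotation, at 47, 26.3 and 50.7 in WT against 0.00134, 0.91 and 1.63 (-4.57 ± 1.01, adjusted p = 0.0048). QQS, a gene of starch metabolism found only in Arabidopsis thaliana, came next at 36.5, 35.7 and 35.5 in WT against 1.53, 1.38 and 0.928 (-4.03 ± 0.10, adjusted p = 5.5e-10). Several of the 12 largest falls ended near 0 in every library labelled ring1ab. The pseudogene AT1G43590 was at 17.7, 12.9 and 15.6 in WT against 0.366, 0.0917 and 0, the pseudogene AT5G35935 at 6.44, 6.47 and 5.87 in WT against 0, 0.0314 and 0.0295, the pseudogene AT5G28335 at 5.43, 4.48 and 4.63 in WT against 0.016, 0.0372 and 0, and the copper amine oxidase gene AT1G31690 at 5.97, 6.23 and 5.85 in WT against 0.13, 0.114 and 0.0863. AT1G67865, of unknown function, fell from 90.3, 94.8 and 104 in WT to 9.91, 6.05 and 9.66 (-3.38), and the glutaredoxin AT2G47880 from 20.1, 19.5 and 25.6 in WT to 3.9, 0.845 and 1.49 (-3.00).

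Nuclear photosynthesis genes had lower values without reaching the threshold. None of 30 nuclear photosystem and antenna genes was called, but their median was -0.51 and 24 of them had all 3 labelled libraries below WT. Over all tested genes, 50.9% had groups that did not overlap, counting both directions. Summed FPKM of the list was 67202, 62445 and 62182 in WT against 53323, 42730 and 44391. All 13 carbon fixation genes had the labelled libraries below WT (median -0.71) and 2 were called. RBCS2B, a small subunit of Rubisco, fell from 2469, 2508 and 2498 in WT to 1220.2, 1167 and 1165 (log2 fold change -1.07 ± 0.11, adjusted p = 2.5e-05), and CA2, a carbonic anhydrase, from 1045, 971 and 877 in WT to 572, 373 and 415 (-1.11 ± 0.26). CA2 was not called without replicate 2 of the labelled libraries (-0.98), and the RBCS genes share long stretches of sequence.

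The chloroplast NDH complex, which cycles electrons around photosystem I, was picked out after its members were seen to fall. Of 26 tested genes listed for this complex, not all of them subunits, 8 fell and none rose (median -0.79). All 3 labelled libraries lay below WT for 23 of them, where 50.9% of all tested genes had groups apart in either direction. PnsL3 was at 29.1, 23.9 and 30 in WT against 6.38, 7.83 and 6.34 (log2 fold change -1.87 ± 0.19) and PnsL2 at 45, 47.4 and 44.9 in WT against 17.5, 16.1 and 15.8 (-1.42 ± 0.12). CRR7, at 29, 30.2 and 30.6 in WT against 13.6, 12 and 11.2 (-1.23), ended a run of 4 neighbouring tested genes on chromosome 5 (15665502 to 15704272) that all fell, after the germin-like genes AT5G39130, AT5G39160 and AT5G39190.

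Several further genes that fell are given singly and stand for no group. GER3, an abundant germin-like protein of the cell wall, fell from 1196, 1138 and 1198 in WT to 314, 341 and 322 (log2 fold change -1.85 ± 0.37, adjusted p = 0.0028). The germin-like genes of the run above fell too. In a germin-like list added after values were seen, 2 of 10 tested genes fell and none rose (median 0.04). That list did not hold every germin-like gene that fell. MYB16 and MYB106, which build the cuticle and shape petal and leaf epidermal cells, were at 27.5, 19.3 and 26.4 in WT against 8.88, 8.85 and 10.6 (-1.27) and 2.93, 3.28 and 4.33 in WT against 0.668, 0.46 and 1.35 (-1.32). MYB23, a trichome regulator, was at 4.71, 4.66 and 5.7 in WT against 1.53, 1.96 and 1.78 (-1.13). CLE5, a small signalling peptide gene of leaf bases, was at 5.87, 3.77 and 4.62 in WT against 0, 0.17 and 0.287 (-2.31). The rRNA gene AT2G01020 was among the 6 most abundant falls at 786, 576 and 595 in WT against 283, 312 and 354 (-1.03), a call lost without replicate 1 of WT (-0.89) or replicate 1 of the labelled libraries (-0.96).

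None of 13 Casparian strip and endodermis genes and none of 13 tested root hair genes was called, with medians of -0.11 and 0.31. Summed Casparian strip FPKM was 204, 255 and 272 in WT and 222, 256 and 275 in the libraries labelled ring1ab. The 10 reference genes were not called either (median 0.05).

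A pair of genes outside the embryo lists stood among the most abundant rises. AT3G05730, a defensin-like gene that overlaps AT3G01735 on the other strand, was at 379, 499 and 411 in WT against 3043, 3709 and 2206 (log2 fold change 2.77 ± 0.54), and GRP3S, a glycine-rich wall protein gene, at 282, 393 and 274 in WT against 1404, 1842 and 798 (2.03 ± 0.50). AZI1 and EARLI1, which code for related lipid transfer-like proteins of defence priming and freezing responses, headed a run of 4 neighbouring genes on chromosome 4 (7401087 to 7414955) that all rose. AZI1 was at 76, 135 and 79.9 in WT against 724, 778 and 469 (2.76). Of 1516 higher nuclear genes 305 (20.1%) had a called-higher neighbour among the tested genes, as did 13.8% of all 21029 tested nuclear genes. Of 214 lower genes 31 (14.5%) had a called-lower neighbour, as did 2.02% of all tested nuclear genes. Close copies such as the SESA genes are among these neighbours.

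Families picked by symbol or product name are given beside the 7.16% of all tested genes that rose, with no test of a difference. F-box proteins, which select targets for ubiquitin ligases, rose in 36 of 204 tested cases (17.6%) with none lower, and 426 of the 629 listed F-box genes stayed under 1 FPKM in all 6 libraries. Cytochrome P450 genes rose in 22 of 161 cases and fell in 3. MYB, NAC and TIR-NBS resistance genes rose in 7 of 90, 5 of 58 and 8 of 125 cases, close to that share, and UGT glycosyltransferases in 1 of 56. LBD genes rose in 4 of 20, among them LBD40 at 0.996, 1.03 and 0.845 in WT against 18.5, 30.4 and 15.6 (log2 fold change 3.47).

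Tissue and process notes of the reference annotation were counted over all tested genes. Of the genes tested, 1599 carried a note naming tissues, and 230 of these rose (14.4%). Seed was named for 113 genes of which 42 rose (37.2%), embryo for 108 of which 30 rose (27.8%), petal for 34 of which 11 rose (32.4%), and leaf apex for 25 of which 8 rose (32.0%). Other floral parts were near the share of all noted genes, with flower at 16.2%, carpel at 14.3%, sepal at 15.2% and stamen at 15.7%. Inflorescence meristem was at 7.27%, leaf at 16.3% and cotyledon at 17.7%. Leaf whorl was named for 102 genes of which 26 rose (25.5%), sperm cell for 112 of which 25 rose (22.3%), and shoot apex for 90 of which 19 rose (21.1%). Root was named for 620 genes of which 88 rose (14.2%), pollen tube for 199 of which 16 rose (8.04%), and guard cell for 147 of which 2 rose (1.36%). Counting only genes that averaged 1 FPKM or more in WT, an alternative chosen after seeing the data, the shares were 10.6% for seed, 6.25% for embryo, 5.56% for petal, 11.8% for leaf apex, 6.67% for leaf whorl, 2.90% for sperm cell, 8.82% for shoot apex and 11.2% for root, against 7.59% of all genes with such a note. Genes averaging under 1 FPKM in WT were tested only where some genotype was higher, which bears on the shares of all genes.

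Process notes were carried by 12365 tested genes, of which 843 rose (6.82%). Response to chitin had 17 of 51 genes higher (33.3%), lipid transport 23 of 78 (29.5%), response to abscisic acid 18 of 75 (24.0%) and defence response 38 of 269 (14.1%). Further terms were also above the share of all noted genes. Response to biotic stimulus had 6 of 23 higher (26.1%) and fatty acid biosynthetic process 9 of 42 (21.4%), with none lower in either. Defence response to fungus had 12 of 60 higher (20%) and 3 lower, and response to wounding 11 of 61 higher (18.0%) and 1 lower. Innate immune response had 15 of 87 higher (17.2%) and none lower. Some other terms lay nearer the share of all noted genes or below it. Embryo development ending in seed dormancy had 16 of 189 higher (8.47%), embryo development 2 of 30 and seed development 1 of 15. Flower development had 2 of 24 higher, flowering 0 of 15 and defence response to bacterium 4 of 89 (4.49%). Ovule development had 7 of 19 higher, all 7 from genes under 1 FPKM in WT. Photosynthesis had none of 65 higher and 2 lower. Among genes averaging 1 FPKM or more in WT, response to chitin had 31.1% higher, lipid transport had 18.8% and response to abscisic acid 15.9%. Embryo development ending in seed dormancy had 1.18% higher, against 4.23% of all such genes with a process note.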

How the data were processed

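RNA of whole seedlings was sequenced. The labels name polyA RNA as the molecule, while the library kit in the labels is one for total RNA. Per the submitters' processing notes the authors used FastQC, HISAT2 and StringTie (versions not given in the sources used here) with TAIR10, and deposited 1 table of FPKM per gene for 12 libraries. FPKM values were deposited without counts, so depth was read from the steps of single-exon genes (values within 1%), and a count test was not used. No column was left unmapped (0), and no column of the authors' own comparisons was used.

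Genes with at least 1 FPKM in at least 3 of the 12 libraries were tested with limma 3.58.1 (R 4.3.3) on log2(FPKM + 1) with a pseudocount of 1, all 12 libraries in one fit, contrast ring1ab minus WT. A call needed an unadjusted p under 0.05 and a log2 fold change of 1 or more in either direction. Adjusted p-values are Benjamini-Hochberg over all 21227 tested genes. Errors are SE, n = 3 per genotype. The fit was tested on simulated data. Names and notes came from RefSeq TAIR10.1, which held 32835 of the 33602 genes. Tables used Python 3.11.15 and pandas 2.3.3.

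The gene lists and members were chosen with earlier results of these data known, and lists got no test. The named genes were the PRC1, KNOX and embryo maturation lists, the 12 largest rises and falls whose groups did not overlap, the 6 most abundant called genes in each direction, and up to 3 called genes per list and direction, or its 2 most abundant where none was called. Others were chosen after their values were seen. Alternatives were another pseudocount, filter, scaling, fit and each library left out.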

Additional observations from a re-analysis of the deposited data

How the results depend on the processing

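Only the number of lower genes under a pseudocount of 0.1 left the range of 1.5 times: 397 against 219, with 2247 against 1520 higher. Other settings gave 1440 to 1685 higher and 212 to 279 lower genes. Leaving out each library in turn gave 1419 to 1611 higher and 222 to 251 lower. Deviations of same-numbered libraries correlated at -0.12, 0.04 and -0.13, and a fit with the replicate block gave 1518 higher and 221 lower genes. Whether same-numbered samples were grown or harvested together was not stated, and these values cannot settle it. Of 149 named genes over 16 settings, 2349 of 2381 results kept their call, 30 fell under the threshold, 2 passed it and none changed direction. Most losses were genes close to the threshold. BGLU34 lost its call at a pseudocount of 0.1 (unadjusted p = 0.064), under median-of-ratios scaling (0.98) and without replicate 1 (0.95) or 2 (0.99) of WT or replicate 2 of the libraries labelled ring1ab (0.93). FMO1 and PR5 were not called with adjusted p. HAI1 (0.98) and RPL were not called under median-of-ratios scaling, and ABI5 was called at a pseudocount of 0.1 (1.22). Depth is known only as an estimate, and genes under 1 FPKM in both genotypes cannot be ranked by it.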

Other observations

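The 3 libraries labelled ring1ab differed among themselves along lines that ran across several lists. Replicate 1 was the highest of the 3 for 27 of 30 photosystem and antenna genes, 12 of 13 carbon fixation genes, 26 of 28 rapid-response genes and 14 of 20 abscisic acid genes. Replicate 2 was highest for all 13 storage genes, 13 of 15 oil genes, 17 of 25 LEA genes and all 7 tested PLT/AIL genes. Replicate 3 was highest for 9 of 15 phosphate starvation genes.

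Some further hormone and transport genes were chosen after their values were seen. CYP94B3, which breaks down the active jasmonate conjugate, was at 2.32, 3.22 and 3.2 in WT against 94.9, 13.7 and 21.2 FPKM (log2 fold change 3.02). NRT1.8, a nitrate transporter that unloads nitrate from xylem, was at 0.173, 0.61 and 0.577 in WT against 6.66, 4.88 and 4.82 (2.15). GASA3, of the gibberellin-responsive peptide family, was listed at 0 in every WT library and at 4.38, 6.07 and 4.93 in the libraries labelled ring1ab, while GASA6 of the same family fell from 378, 334 and 305 in WT to 161, 148 and 186 (-1.04). The auxin-responsive growth genes SAUR63 and SAUR68 fell from 4.32, 3.63 and 5.13 in WT to 1.05, 2.19 and 1.56 (-1.06) and from 3.95, 2.79 and 3.96 in WT to 0.512, 1.24 and 0.865 (-1.29).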
